A study of Mus musculus with 14 samples.

Results

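The 9 genes described here encode the 5 subunits of the transcription factor NF-kB (Nfkb1, Nfkb2, Rel, Rela and Relb) and 4 proteins that restrain or modify it (Nfkbia, Nfkbiz, Nfkbid and Tnfaip3). They were chosen by name, 9 of 21883 protein-coding genes of the RefSeq table for GRCm38.p6, and each was examined over its gene body with 10 kb on either side. Coordinates are those of GRCm38. CUT&RUN, in which a nuclease tethered to an antibody cuts out the DNA around the antibody's target, had been run in mouse Th1 cells for the acetylated histone H3K27ac, a mark of active promoters and enhancers, for the chromatin architecture protein CTCF and for the transcription factor ETS1. Cells of C57BL/6J mice (WT) and of the strain C57BL/6J-Ets1-SE-KO (KO) were compared. All had been isolated as naive CD4+ T cells from spleen and stimulated with anti-CD3 and anti-CD28 in the presence of IL-12 (10 ng/mL) and IL-2 (1 ng/mL), over a culture of 6 days. What the label's SE stands for, the coordinates of the change and the age of the animals are not stated in the labels. Each antibody and genotype had 2 libraries. According to the sample titles the KO libraries are 2 biological replicates, whereas both WT libraries are technical replicates of a single biological one, so the WT spread is technical, although the list names number the CTCF libraries of WT differently.

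NF-kB proteins share the Rel homology domain, through which they form dimers and bind DNA. RelA, c-Rel and RelB carry a transactivation domain, whereas Nfkb1 and Nfkb2 encode precursors that are processed into DNA-binding partners without one. In resting cells IkB proteins such as the product of Nfkbia hold dimers in the cytoplasm, and signalling through the T cell receptor and CD28 leads to their degradation, after which the dimers enter the nucleus and induce, among others, Nfkbia and Tnfaip3 as feedback inhibitors. Nfkbiz and Nfkbid encode atypical IkB proteins that act in the nucleus, and the Tnfaip3 product is a ubiquitin-editing enzyme that dampens the signal upstream.

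Promoters of 2 subunits and 2 inhibitors are printed here because they hold matches to the motif that NF-kB itself binds. RefSeq promoter sequences of build GRCm38.p6 were matched for 6 of the 9 genes, with 11 annotated starts, and not for Nfkb1, Relb and Nfkbiz. The 250 bases before a start are given 5′ to 3′ on the gene's strand, with matches to the 10-letter NF-kB consensus in capitals.
Nfkb2, chr19:46304487-46304736, + strand: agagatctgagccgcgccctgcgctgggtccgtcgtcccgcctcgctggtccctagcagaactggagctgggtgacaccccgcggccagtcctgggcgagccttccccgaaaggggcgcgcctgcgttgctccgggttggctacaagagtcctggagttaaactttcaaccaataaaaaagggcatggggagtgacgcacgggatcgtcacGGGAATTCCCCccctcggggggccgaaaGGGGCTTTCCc
Rel, chr11:23770970-23771219, - strand: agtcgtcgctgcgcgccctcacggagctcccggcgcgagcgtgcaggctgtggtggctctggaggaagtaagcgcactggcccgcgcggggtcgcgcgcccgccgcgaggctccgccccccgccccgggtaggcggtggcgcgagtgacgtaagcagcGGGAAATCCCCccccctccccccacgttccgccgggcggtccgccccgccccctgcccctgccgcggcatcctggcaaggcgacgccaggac
Nfkbia, chr12:55492648-55492897, - strand: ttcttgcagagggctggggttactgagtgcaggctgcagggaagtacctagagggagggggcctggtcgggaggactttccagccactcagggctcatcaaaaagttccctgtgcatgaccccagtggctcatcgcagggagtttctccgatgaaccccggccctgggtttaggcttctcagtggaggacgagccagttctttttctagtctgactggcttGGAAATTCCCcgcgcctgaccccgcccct
Tnfaip3, chr10:19015411-19015660, - strand: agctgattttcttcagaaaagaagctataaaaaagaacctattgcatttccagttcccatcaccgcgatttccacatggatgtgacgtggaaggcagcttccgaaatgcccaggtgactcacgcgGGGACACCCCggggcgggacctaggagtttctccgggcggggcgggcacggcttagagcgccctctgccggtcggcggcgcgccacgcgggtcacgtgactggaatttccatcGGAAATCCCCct

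Counted in bases from the first transcribed base, with upstream positions negative, the matches in Nfkb2 began at -39, -38 and -11, the first pair overlapping each other. In Rel a similar overlapping pair began at -92 and -91. The single match of Nfkbia began at -29, and those of Tnfaip3 at -125 and -12. At Nfkbid the second annotated start had the matches GGGACTTCCC and GGAATTCCCC, at -226 and -181. Searched on both strands, the NF-kB consensus was present in 7 of these 11 windows, from 5 of 6 genes, and absent from the window of Rela. Among all 32851 RefSeq promoter windows of this length, 3.90% held it. CCGGAA, a core of the ETS motif, also searched on both strands, was in 0 of the 11 windows and in 12% of all windows, so no match of it overlapped an NF-kB match. A match describes the letters of a window, and a window without one says nothing of the factor. Of the 11 windows, 9 lay at least partly under an H3K27ac peak in all 4 libraries, 6 under a CTCF peak and 3 under an ETS1 peak in all 4. The printed Tnfaip3 window met H3K27ac in 2 libraries, replicate 1 of each genotype, CTCF in 3 and ETS1 in 0. The other printed windows met H3K27ac and CTCF in all 4. ETS1 was met in 4 libraries at Nfkb2, 3 at Rel and 2 at Nfkbia.

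The files are lists of called peaks without read counts. Library depth is therefore unknown, and every value is a length of sequence under peaks or a number of peaks. The lists held between 24581 and 28647 peaks for H3K27ac and between 31368 and 40502 for CTCF, with the KO lists longer than the WT lists for both antibodies, while those for ETS1 ranged from 9344 to 40705, both extremes in KO. Peaks of the control antibody IgG, 2 in WT and 285 in KO, touched 0 of the 9 windows. At Ets1, the gene named in the KO label, H3K27ac peaks covered 24.2 and 23.4 kb in KO, compared with 46.6 and 44.1 kb in WT. Of 7 T cell and Th1 marker genes, 5 had H3K27ac in the gene body or within 2 kb in all 4 libraries, Cxcr3 had none and Ifng had a peak in 1 WT library, and the list's summed length was 20.5 and 22.1 kb (WT) against 36.8 and 31 kb (KO). NK and erythroid markers had 0 peaks. The summed lengths of B cell (0.7 to 1.06 kb), myeloid (1.34 to 2.55 kb) and CD8 (0.287 to 1.09 kb) markers overlapped between genotypes. Epcam and Col1a1, markers of non-haematopoietic cells, had no H3K27ac peak. Pecam1 had 11.7 and 13.8 kb in the WT pair, against 10.7 and 10.2 kb in the KO pair. The Pecam1 peaks were not taken as a sign of non-haematopoietic cells. The part of cell composition in the results was not tested, and a mark on fewer cells cannot be told apart from less of the mark per cell.

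H3K27ac peaks covered more sequence in both KO libraries than in both WT libraries at 8 of the 9 genes, beside 54.0% of the 13281 protein-coding genes with a peak. The groups overlapped at Tnfaip3. Both WT libraries were higher at 0 of the 9, beside 6.37% of all genes. The KO lists covered more of the genome (28 and 28.5 Mb) than the WT lists (21.8 and 21.3 Mb), and after division by each list's total, a scaling chosen after seeing the data, Nfkb1, Rel, Relb and Nfkbia were higher in both KO libraries (4 of 9, background 20.8%), Nfkb2 was higher in both WT libraries (1 of 9, background 31.4%), and 4 overlapped. The median log2 ratio of KO over WT, computed after adding 1 kb to each mean, was 0.41 over the 9 genes and 0.18 over all genes with a peak.

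**Figure D1:**
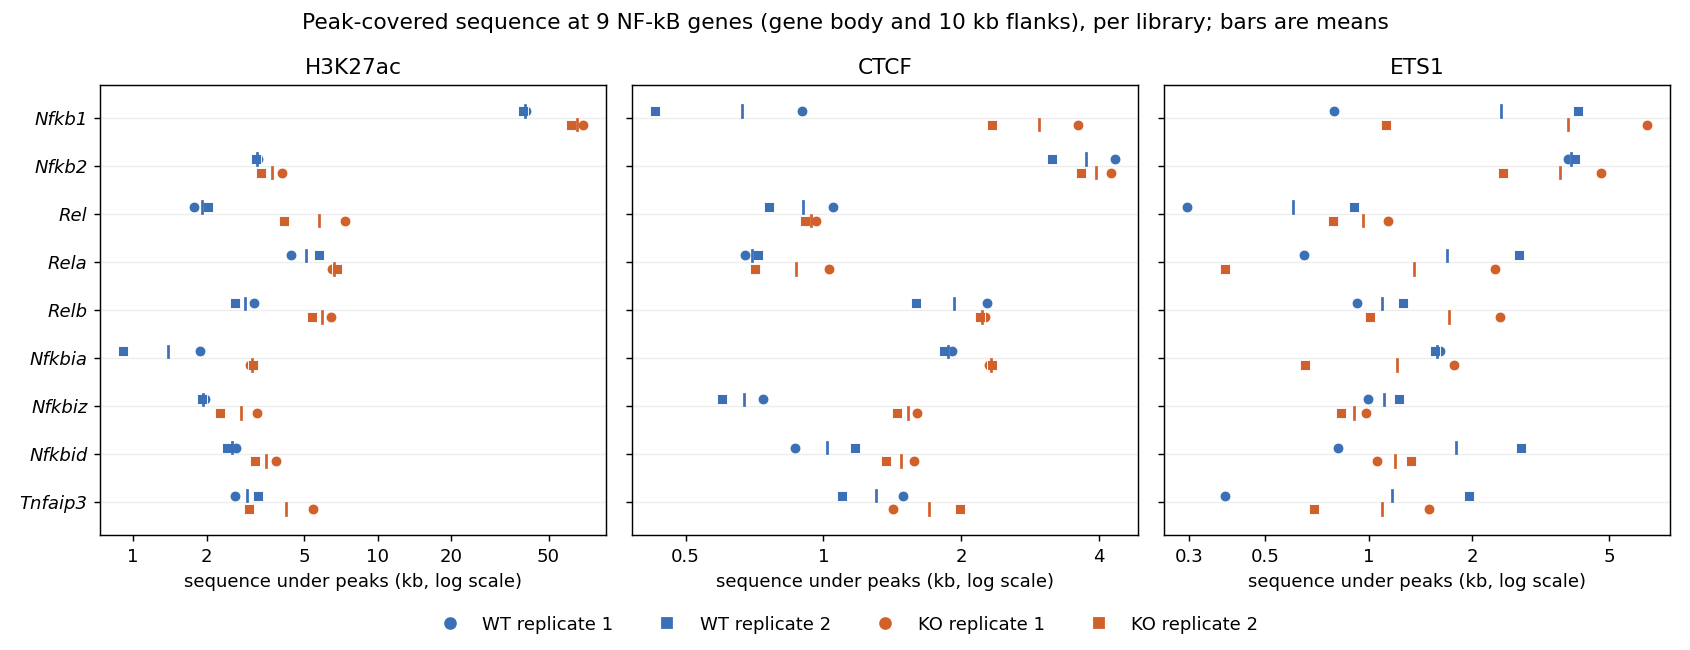
Sequence under peaks (kb, log scale) in the gene body and 10 kb flanks of each of the 9 genes, for H3K27ac, CTCF and ETS1; circles and squares are replicates 1 and 2, short bars are means, blue is WT and orange KO. For H3K27ac the genotypes are separate at 8 of 9 genes, with Nfkb1 far to the right of the others, whereas the ETS1 replicates of a genotype lie far apart at most genes.

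Nfkb1 (gene 18033, chr3:135584655-135691969) encodes a precursor subunit and was the most heavily marked of the 9. Its 127 kb window had 40.4 and 39.4 kb under H3K27ac peaks in WT and 69.4 and 62 kb in KO. Both KO libraries stood well above the WT libraries, which lay close together. The means were 39.9 ± 0.734 kb (SD, 2 technical replicates) and 65.7 ± 5.22 kb (SD, n = 2), a ratio of 1.65 and a log2 ratio of 0.71, or 0.32 after division by the list totals. Its difference of 25.8 kb was the fifth largest in favour of KO among 13281 genes, and its covered length ranked 11 in WT and 5 in KO. By log2 ratio its rank was 976. Covered sequence made up 31.3% of the window in WT and 51.6% in KO. The exact two-sided permutation test over libraries, 2 against 2, gave p = 0.333, the smallest it can give, and counts the single WT biological replicate as 2. Over biological replicates, 1 against 2, the exact test gave p = 0.667, again the smallest possible, so the values below are given without a p.

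More sequence was covered at Nfkb1 without more peaks. The window held 33 and 37 peaks for WT against 31 and 35 for KO, which overlapped, while the median peak was 930 and 692 bp wide in WT and 1345 and 1224 bp in KO. Over the whole lists the median H3K27ac peak was also wider in KO, at 695 and 663 bp against 615 and 607 bp in WT. The widest peak measured 9879 and 6941 bp in KO, compared with 5320 and 3363 bp in WT. Of the bases under a peak in both KO libraries and neither WT library, 12.7 kb in total, 11.3 kb lay in regions that also had peaks in WT and 1.35 kb in regions called in KO alone. An example is the region at chr3:135585085-135591084, inside the gene near its lower-coordinate end, with 2275 and 1512 bp under peaks in WT and 5334 and 4599 bp in KO. Another, chr3:135642832-135647071, had 372 and 681 bp (WT) against 2388 and 3224 bp (KO). These 2 examples were picked after their values were seen.

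The surplus was spread along the gene. In each of the 7 segments into which the window was cut (20 kb each, the last 7.32 kb), the KO libraries were both above the WT libraries. The gap was widest in the segment from 50 to 70 kb above the lower end, with 7.49 and 7.33 kb in the WT pair, against 13.7 and 13.1 kb in the KO pair. The segment before it, from 30 to 50 kb, had 13.8 and 10.3 kb in KO, compared with 6.68 and 6.55 kb in WT. Within a library the best-ranked peak was at the upper-coordinate end of the gene in all 4. That region, chr3:135689010-135692082, was nearly as wide in both genotypes, with 3037 and 2427 bp (WT) against 3057 and 3069 bp (KO). Its best peak stood in the top 2.09% and 1.57% of the WT lists and the top 2.44% and 1.59% of the KO lists by the authors' −log10 q, so its rank overlapped between genotypes.

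**Figure D2:**
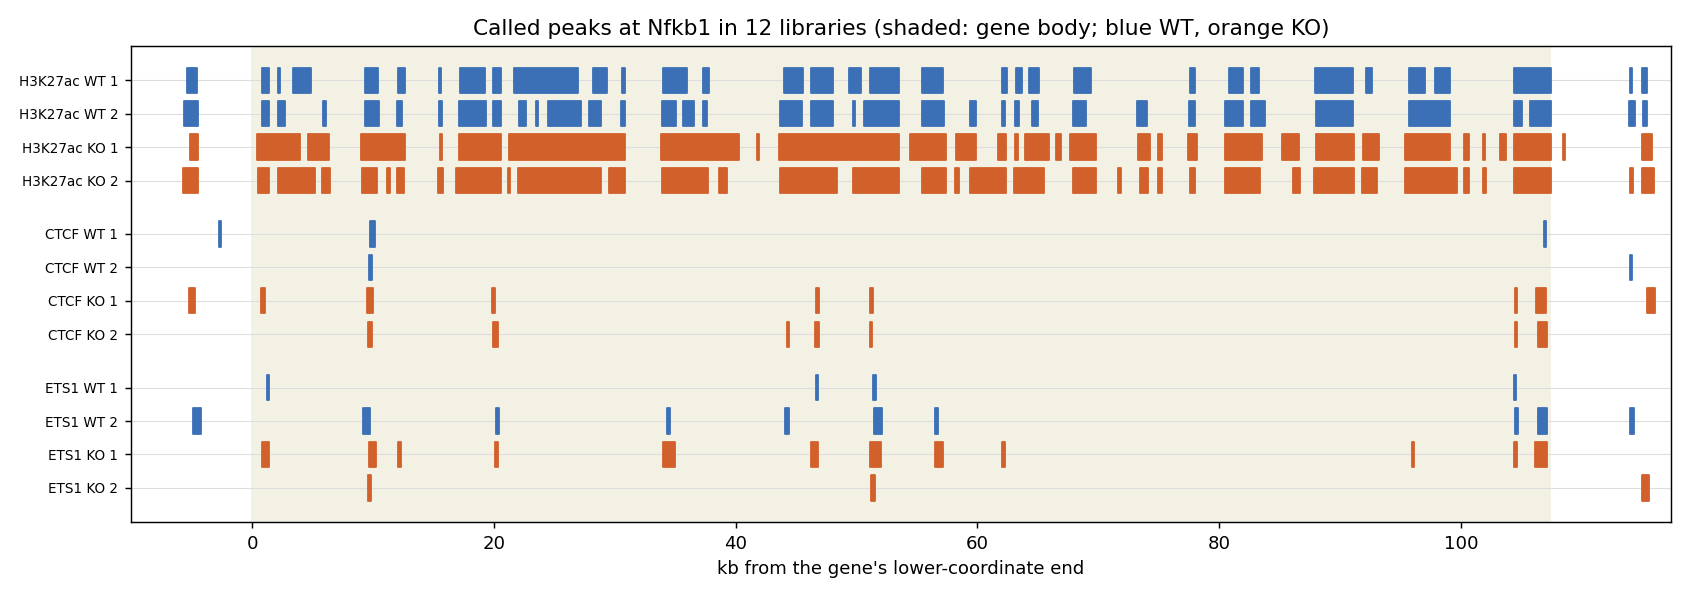
Called peaks of the 12 libraries over Nfkb1 and its 10 kb flanks, in kb from the lower-coordinate end of the gene; the gene body is shaded, WT is blue and KO orange. H3K27ac peaks run over the whole gene in all 4 libraries and are broader in KO, while CTCF peaks within the gene are mostly in the KO libraries.

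Joined across gaps of up to 12.5 kb, the peaks at Nfkb1 formed a single domain in every library. Its span was 144 kb in both WT libraries and 154 kb in both KO libraries, of which 43.6 and 42 kb were covered in WT and 74.8 and 66.5 kb in KO. By covered length it ranked 10 of 12433 and 10 of 12195 domains in WT, and 4 of 12550 and 8 of 12921 in KO. No other protein-coding gene overlapped the domain. Among the other 8 genes, the domains of Rela ranked 144 and 108 in WT and 498 and 135 in KO, and they joined Rela with its neighbours.

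Rel (gene 19696, chr11:23736847-23770969), which encodes c-Rel, a subunit prominent in activated T cells, had the highest log2 ratio of the 9. H3K27ac peaks covered 1.78 and 2.03 kb in the WT pair, against 7.36 and 4.16 kb in the KO pair. The WT libraries were close, and the KO libraries were both higher but differed from each other. The log2 ratio was 1.22 (rank 121 of 13281), 0.92 after division by the list totals, and 0.83 without KO replicate 1. There were 2 peaks in each WT library and 5 and 6 in the KO libraries. With peaks of −log10 q of at least 5 alone the log2 ratio was 0.09. The best-ranked peak, at the promoter printed above, in chr11:23770519-23772050, stood in the top 11.5% and 11.6% of the WT lists and 7.86% and 11.3% of the KO lists.

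Relb (gene 19698, chr7:19606217-19629438) encodes the subunit that pairs with the processed Nfkb2 product in the alternative pathway. Its window had 6.46 and 5.37 kb in KO, compared with 3.12 and 2.6 kb in WT, without overlap. The log2 ratio was 0.84, and 0.53 after division by the list totals. Much of this lay beside the gene, where the window also reaches Clasrp and Clptm1: over the gene body alone the log2 ratio was 0.16, and with 50 kb flanks it was 1.18.

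Rela (gene 19697, chr19:5637442-5648134) encodes the main transactivating subunit of the classical pathway. H3K27ac covered 4.41 and 5.74 kb (WT) against 6.53 and 6.8 kb (KO). The KO libraries were higher by less than the gap between the WT libraries. The log2 ratio was 0.33, but -0.0018 after division by the list totals and 0.07 with stronger peaks alone. Nfkb2 (gene 18034, chr19:46300994-46312400), the precursor of the alternative pathway, had the lowest log2 ratio, 0.16, from 3.25 and 3.17 kb in the WT pair, against 4.05 and 3.33 kb in the KO pair. Its KO libraries were barely above WT, and after division by the list totals the log2 ratio turned to -0.15.

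Among the inhibitors, Nfkbia (gene 18035, chr12:55489409-55492647), which encodes IkBα, had the highest log2 ratio. Its peaks covered 3 and 3.09 kb in KO, compared with 1.87 and 0.91 kb in WT. The KO libraries were nearly equal and both above WT, where 1 library had less than the other. The log2 ratio was 0.76, 0.50 after division by the list totals, 1.08 without WT replicate 1 and 0.50 without WT replicate 2. The gene is 3.24 kb long, and the peak at the promoter printed above ran over 1871 and 910 bp (WT) against 2506 and 2377 bp (KO).

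Nfkbiz (gene 80859, chr16:55811375-55838954) had 1.97 and 1.91 kb in the WT pair, against 3.22 and 2.27 kb in the KO pair. Its groups did not overlap, with a log2 ratio of 0.35, which was 0.15 without KO replicate 1 and 0.08 after division by the list totals. Nfkbid (gene 243910, chr7:30421731-30428749) had 3.83 and 3.14 kb in KO, compared with 2.64 and 2.42 kb in WT. Here too the KO libraries were higher, with a log2 ratio of 0.35 that was 0.05 after division by the list totals, and its peaks were the weakest of the 9 genes, with none of −log10 q of at least 5 in the 4 libraries. In KO replicate 1 a single peak of 3830 bp ran from Hcst, upstream, into Nfkbid, where each WT library had 2 separate peaks. Tnfaip3 (gene 21929, chr10:19000910-19015410) had 2.6 and 3.25 kb (WT) against 5.45 and 2.98 kb (KO). KO replicate 1 alone was above WT, and without it the log2 ratio of 0.41 was 0.02.

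**Figure D3:**
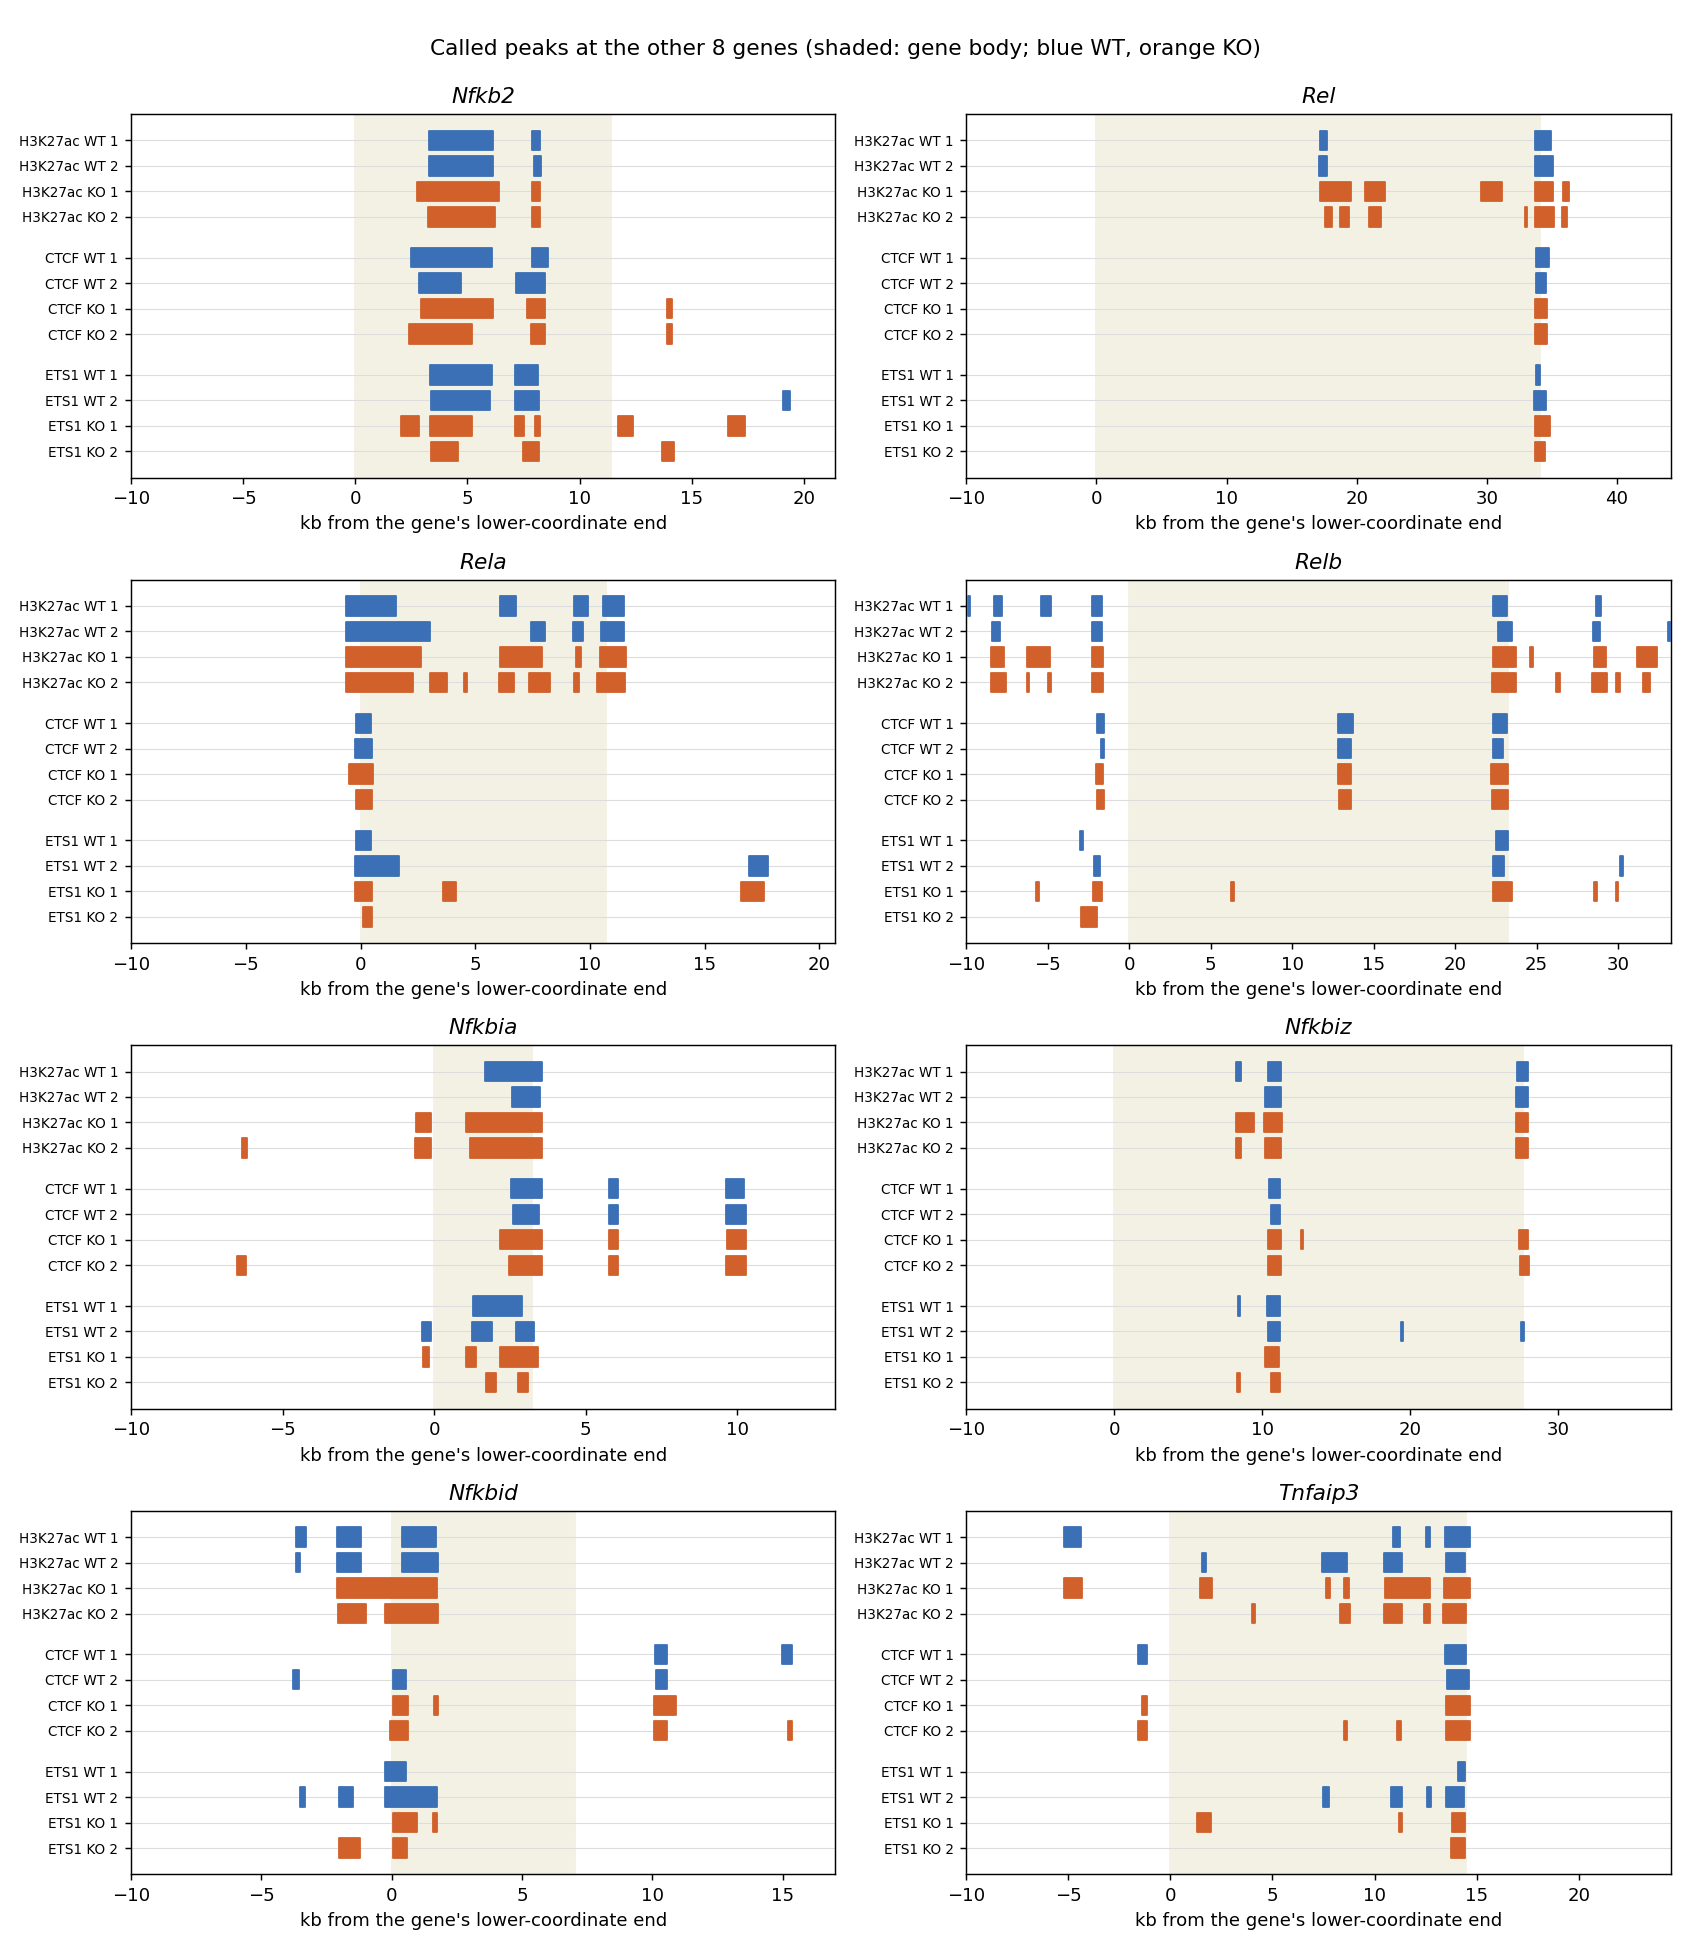
Called peaks of the 12 libraries at the other 8 genes, in kb from the lower-coordinate end of each gene; gene bodies are shaded, WT is blue and KO orange. Most genes have 1 or 2 places marked by all 3 antibodies, and the KO-only H3K27ac peaks of Rel lie inside the gene and just beyond its upper end.

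Per length, the order of the genes by H3K27ac was led by Nfkb1 in both genotypes. In WT it had 31.7% and 30.9% of its window covered, Rela followed with 14.4% and 18.7%, and Nfkb2 with 10.4% and 10.1%. These 3 were separate from each other. Nfkbid (9.77% and 8.96%) and Tnfaip3 (7.55% and 9.41%) overlapped, and Relb (7.21% and 6.01%) was just under both. Nfkbia spread from 3.92% to 8.05% and overlapped Relb, Nfkbiz (4.14% and 4.01%) was within that spread, and Rel was lowest at 3.29% and 3.75%. In KO Nfkb1 (54.5% and 48.7%) and Rela (21.3% and 22.1%) kept the first places, Nfkbiz was last (6.77% and 4.77%), and the other 6 genes overlapped in a band between 7.69% and 15.8%.

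Merged over the 4 libraries, the peaks at the 9 genes gave 68 H3K27ac regions, of which 36 were called in all 4 libraries, 8 (11.8%) in both KO libraries and neither WT library, 1 (1.47%) in both WT libraries and neither KO library, and 23 in other combinations. Over all genes 6.57% of regions were KO-only and 2.16% WT-only. All 9 genes had a region called in all 4 libraries, as did 52.0% of all protein-coding genes. A region counts as called in a library when any peak of that library falls in it, and at 1 of the 36, chr19:5643465-5645682 at Rela, the peaks of the 4 libraries had no base in common. The KO-only count was 21 without KO replicate 1 (19.3% over all genes), 14 without KO replicate 2 (16.3%), when the other KO library alone had to carry the call, and 1 with peaks of −log10 q of at least 5 (12.3%). The total of regions at the 9 genes under these settings was not counted, so the counts cannot be set directly against the percentages. The peaks of the 8 regions stood between the top 15.6% and the top 98.8% of the KO lists, most of them in the lower part.

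Of the 8 KO-only regions 4 lay inside Nfkb1: chr3:135659611-135659943, chr3:135669879-135671293, chr3:135684864-135685309 and chr3:135686444-135686680. The last held the better-ranked peaks of the 4, in the top 32.2% and 15.6% of the KO lists, while the others stood between 55.3% and 82.6%. Rel had 2, chr11:23757514-23759046 inside the gene and chr11:23772645-23773153, 1675 bp beyond its upper end. At Relb chr7:19637410-19638628 was within Clptm1, and at Nfkbia chr12:55488787-55489315 was 93 bp beyond the lower end of the gene. The WT-only region, chr7:30418055-30418448, lay in the window of Nfkbid but within Hcst, 3282 bp from Nfkbid, and ranked in the top 85.4% and 70.4% of its lists. Both of its peaks were thus among the lower-ranked ones.

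Counted base by base, H3K27ac called in both KO libraries and neither WT library came to 40.3% of the length called in all 4 at the 9 genes, and to 39.9% without Nfkb1. The same ratio was 25.2% over the genome. In the opposite direction the 9 genes had 0.543% and the genome 5.24%. The genes differed widely: the ratio was 170% at Rel, 110% at Nfkbia, 80.1% at Relb, 40.4% at Nfkb1 and 38.1% at Nfkbid, all above the genome's value. It was 23.9% at Tnfaip3, 5.42% at Rela, 5.27% at Nfkbiz and 2.75% at Nfkb2, all below it.

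**Figure D4:**
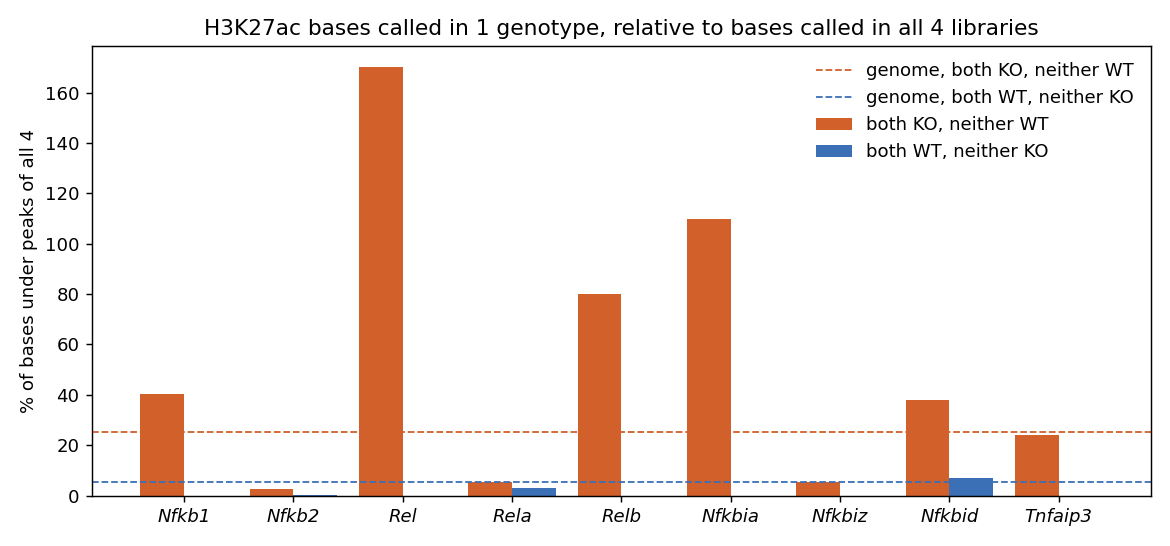
H3K27ac bases called in both libraries of 1 genotype and neither of the other, as a percentage of the bases called in all 4 libraries, for each of the 9 genes; dashed lines give the same percentages over the genome (25.2% for KO, 5.24% for WT). Rel, Nfkbia and Relb stand highest for KO, and Nfkb2, Rela and Nfkbiz stay under the genome's KO line.

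CTCF, which anchors chromatin loops, had a region called in all 4 libraries in the window of each of the 9 genes. The same held for 62.4% of all genes and 88.2% of genes with H3K27ac in all 4 libraries. At Nfkbid the only such region lay 3028 bp outside the gene. Both KO libraries covered more than both WT libraries at 4 genes (Nfkb1, Nfkbia, Nfkbiz and Nfkbid), beside 56.3% of the 16069 genes with a CTCF peak, and both WT libraries at 0, beside 3.02%. After division by the list totals, 2 were higher in KO (Nfkb1 and Nfkbiz, background 24.8%) and 2 in WT (Nfkb2 and Rel, background 21.9%). The median log2 ratio was 0.21 over the 9 genes and 0.21 over all genes. Without WT replicate 1 the KO count was 8 (background 72.1%), and without WT replicate 2 the WT count was 3 (background 13.1%).

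Nfkb1 stood apart in CTCF. Peaks covered 0.899 and 0.429 kb in the WT pair, against 3.59 and 2.33 kb in the KO pair. Both KO libraries were far above WT, with 9 and 7 peaks against 3 and 2. The log2 ratio of 1.25 was rank 22 of 16069 genes, and 1.03 after division by the list totals. It was 0.69 with the same number of peaks per list, and 0.00 with peaks of −log10 q of at least 5, since none at Nfkb1 was that strong in a KO or WT library. The single CTCF region of Nfkb1 in all 4 libraries was chr3:135594170-135594861.

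At the members' windows 36 CTCF regions were counted, 14 called in all 4 libraries, 6 KO-only (16.7%, beside 8.65% over all genes), 0 WT-only (beside 0.438%) and 16 in other combinations. Nfkb1 had 4 of the 6: chr3:135604544-135604991, chr3:135631256-135631554, chr3:135635780-135635977 and chr3:135689069-135689298. Each of these lay within an H3K27ac region present in all 4 libraries, and each also met an ETS1 region called in 2, 2, 4 and 3 libraries respectively. The other 2 were chr19:46314900-46315115 at Nfkb2, within Psd, and chr16:55838731-55839368 at the upper end of Nfkbiz. All 6 ranked low, in the top 60.7% to 99.4% of their lists. With the same number of peaks per list there were 0 KO-only regions (3.62% over all genes), with stronger peaks alone 1 (17.6%), without KO replicate 1 there were 10 (14.9%) and without KO replicate 2 there were 11 (16.6%). Here too the total of regions at the 9 genes was not counted under these settings.

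At Nfkbiz CTCF covered 1.6 and 1.45 kb in KO, compared with 0.737 and 0.601 kb in WT, a log2 ratio of 0.60. The KO libraries were close to each other and well above WT. Nfkbid (0.865 and 1.17 kb in WT, 1.58 and 1.37 kb in KO) and Nfkbia (1.91 and 1.83 kb in WT, 2.3 and 2.33 kb in KO) were separate by less, with log2 ratios of 0.30 and 0.21. That of Nfkbia was -0.05 after division by the list totals, and that of Nfkbid was -0.12 with the same number of peaks per list. The other 5 genes overlapped between genotypes, with log2 ratios from 0.03 at Rel to 0.23 at Tnfaip3. After division by the list totals 4 of these were below 0, from -0.24 at Nfkb2 and -0.16 at Rel to -0.12 at Relb and -0.03 at Rela, and Tnfaip3 was at 0.02. The CTCF peak at the start of Tnfaip3, chr10:19014355-19015609, was the best-ranked of the regions called in all 4 libraries in every list but that of WT replicate 2, in the top 2.65% and 14.3% of the WT lists and 1.55% and 4.31% of the KO lists.

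ETS1 had a region called in all 4 libraries in the window of each of the 9 genes, 10 regions in total. The same held for 38.2% of all genes and 69.9% of genes with H3K27ac in all 4 libraries. Nfkb2 had 2 such regions and each other gene 1. That of Relb, chr7:19603205-19604570, lay 1646 bp outside the gene and overlapped Clasrp, and the peaks of the 4 libraries had no base in common. The ETS1 region at the upper end of Relb, chr7:19628534-19629727, was called in 3 libraries and not in KO replicate 2. All 10 overlapped H3K27ac regions of all 4 libraries and 6 lay wholly inside them, 8 also overlapped a CTCF region of all 4, and 6 were within 2 kb of an end of the gene. Shares over all genes are not given for these overlaps, so the counts do not set the 9 genes apart. The exceptions for CTCF were chr3:135635761-135636733 in Nfkb1, with CTCF in the 2 KO libraries, and chr7:30421459-30423485 at Nfkbid, with CTCF in 3 libraries. By rank the region of Nfkbiz, chr16:55821544-55822579, was the best in 3 of the 4 lists, at 4.14% and 3.01% in WT and 6.23% and 9.26% in KO. At the Nfkb2 promoter, chr19:46304343-46307070, the ranks were 21.7% and 19.4% in WT and 7.2% and 41.4% in KO.

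For ETS1 the difference between genotype means was smaller than the SD of at least 1 genotype at every gene but Nfkbiz. Both WT libraries were higher at 1 gene, Nfkbiz (beside 7.47% of 16470 genes), both KO libraries at 0 (beside 3.86%), and 8 genes overlapped. After division by the list totals 2 genes were higher in KO (Rel and Relb, background 8.25%) and 0 in WT (background 10.6%). The median log2 ratio was -0.09 over the 9 genes and 0.04 over all genes. At Nfkb1 ETS1 peaks covered 0.79 and 4.04 kb (WT) against 6.45 and 1.12 kb (KO). At Nfkbiz they covered 0.998 and 1.22 kb in the WT pair, against 0.984 and 0.83 kb in the KO pair, a log2 ratio of -0.15, and 0.05 with the same number of peaks per list. The gap between genotypes at Nfkbiz was narrower than that between the replicates of either genotype. KO-only and WT-only ETS1 regions numbered 0 and 0 of 48 (beside 0.599% and 1.03%), with 38 in mixed combinations. Leaving out a library moved these counts, over all genes as well. Without WT replicate 1 there were 10 WT-only regions (beside 16.2% over all genes) and 4 genes higher in WT (beside 36.5%). Without WT replicate 2 there was 1 KO-only region (beside 3.41%) and 5 genes were higher in KO (beside 23.7%). Without KO replicate 1 there were 2 regions of each kind (beside 3.19% KO-only and 10.0% WT-only) and 4 genes higher in WT (beside 50.9%). Without KO replicate 2 there were 12 KO-only regions (beside 45.3%) and 5 genes higher in KO (beside 58.4%). The total of ETS1 regions at the 9 genes with a library left out was not counted. These region counts are therefore not shares and cannot be set directly against the percentages.

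The 3 readouts were then set against each other region by region. Of the 36 H3K27ac regions called in all 4 libraries, 24 overlapped an ETS1 peak of some library, where 83.9% of such regions did over all genes, and 10 an ETS1 region of all 4 (44.2% over all genes). A CTCF peak was met by 19 (79.3% over all genes) and a CTCF region of all 4 by 10 (54.0%). Nfkb1 held 18 of the 36 regions and so weighs heavily in these counts. Of its 18, 11 met an ETS1 peak and 1 an ETS1 region of all 4. A CTCF peak was met by 7 of them and a CTCF region of all 4 by 1. Of the 8 KO-only H3K27ac regions, 1 overlapped ETS1, that at Nfkbia, and 0 overlapped CTCF, where over all genes 33.4% of KO-only regions overlapped ETS1 and 34.8% CTCF. Among the 14 CTCF regions of all 4 libraries, 4 had no H3K27ac: chr7:19619009-19619944 inside Relb, chr12:55495181-55495486 and chr12:55499042-55499699 beside Nfkbia, and chr7:30431778-30432648 beside Nfkbid. These 4 were also without ETS1 in every library. For these CTCF counts, too, shares over all genes are not given.

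Other genes of the pathway were taken from a list of 48, of which 46 had an H3K27ac peak. Both KO libraries were higher at 35 of the 46 (76.1%, beside 54.0% of all genes), both WT libraries at 2 (beside 6.37%), and 9 overlapped, with a median log2 ratio of 0.34. After division by the list totals 14 were higher in KO (beside 20.8% of all genes) and 10 in WT (beside 31.4%). All 4 genes of the IKK complex and NIK, which act in the release of NF-kB, were higher in both KO libraries. So were 14 of 15 T cell target genes with a peak and 7 of 9 genes of ubiquitin editing. The same held for 4 of 8 of the CBM complex and its kinases, 4 of 7 TRAF and cIAP genes, and 2 of 3 other IkB genes. After division by the list totals the counts higher in KO and in WT were 2 and 0 for the IKK complex and NIK, 7 and 1 for the T cell targets, 3 and 3 for ubiquitin editing, 1 and 2 for the CBM complex and its kinases, 1 and 2 for TRAF and cIAP genes, and 0 and 2 for the other IkB genes. The targets Il2 and Ccl5 had 0 H3K27ac peaks. Tnf, Lta and Ltb are neighbours whose windows overlap, so their values are not independent.

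Il2ra, the high-affinity IL-2 receptor chain, had the highest log2 ratio, 1.38, from 31.4 and 26 kb in KO, compared with 10.8 and 10 kb in WT. Map3k14, which encodes the kinase NIK of the alternative pathway, had 6.33 and 5.43 kb (WT) against 10.1 and 14.9 kb (KO), and Rbck1, of the linear ubiquitin ligase, had 5.44 and 7.18 kb in the WT pair, against 12.6 and 14.1 kb in the KO pair, each with a log2 ratio of 0.97. Cd69, an early activation marker, and Icam1, an adhesion molecule, followed at 0.84 and 0.68. Each of these 5 remained higher in both KO libraries after division by the list totals. Bcl3, an atypical IkB protein like Nfkbiz and Nfkbid, was higher in both WT libraries, at 8.97 and 7.25 kb against 5.37 and 6.2 kb for KO, a log2 ratio of -0.42. Bcl10 followed at -0.03, and Cyld, Csf2 and Tnip2, at 0.19, 0.19 and 0.21, were the lowest among those higher in KO. After division by the list totals, Cyld and Tnip2 were instead higher in both WT libraries, and Csf2 overlapped between genotypes.

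**Figure D5:**
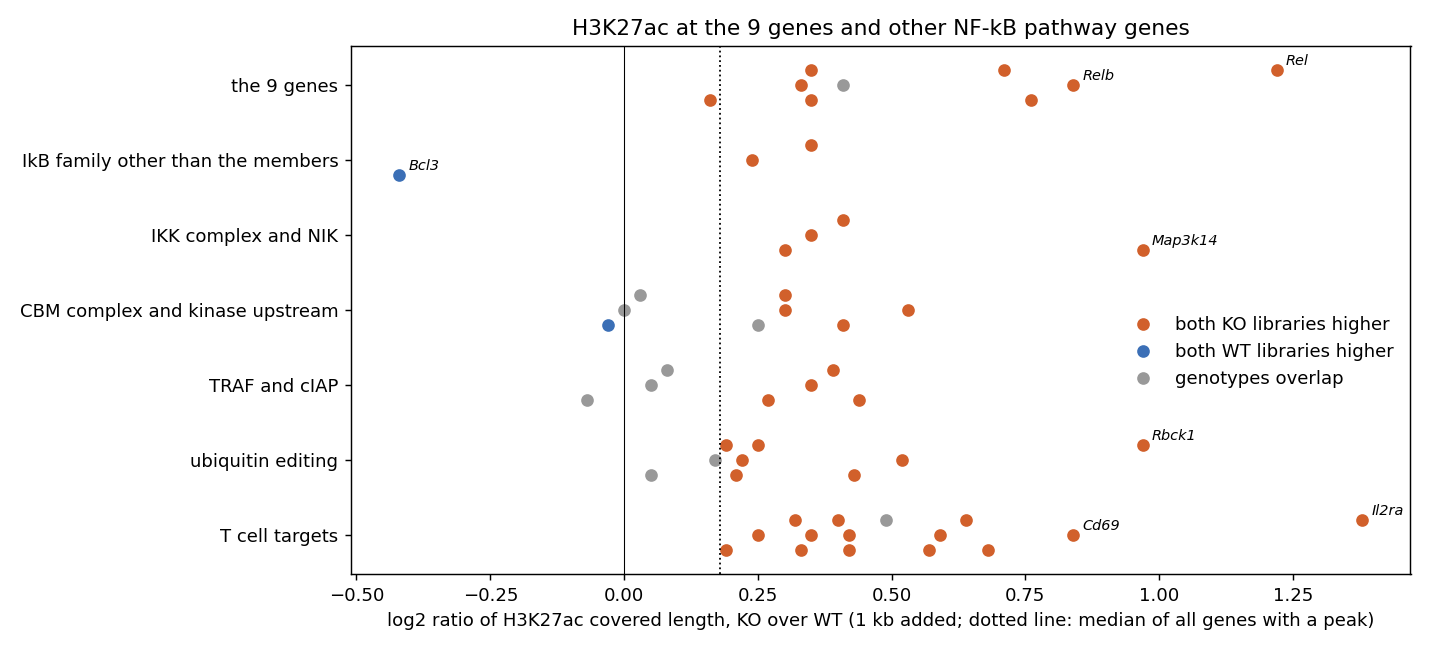
Log2 ratio of H3K27ac covered length, KO over WT with 1 kb added, for the 9 genes (top) and 46 other pathway genes by group; orange marks genes higher in both KO libraries, blue in both WT libraries, grey those that overlap, and the dotted line is the median of all genes with a peak, 0.18. Most points lie to the right of that line, Il2ra and Rel farthest, and of the points to its left Bcl3 lies farthest out.

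The gene most like each of the 9 over all 12 lists was found by the mean absolute difference of log2 covered length, after adding 1 kb. The nearest to Nfkb1 was Exoc2, at 0.38, with H3K27ac over 37.7 and 38.7 kb (WT) against 50.8 and 53.3 kb (KO). The others had closer counterparts: Fbxl19 for Nfkb2 and Ogfr for Relb at 0.14, Zfp142 for Rel at 0.19, Rps6kb2 for Rela at 0.17, Hyal1 for Nfkbia at 0.14, Apobec2 for Nfkbiz at 0.12, Lrrc51 for Nfkbid at 0.13 and Pank2 for Tnfaip3 at 0.18. The median over all genes was 2.39 for Nfkb1 and between 0.88 and 1.53 for the others.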

How the data were processed

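CUT&RUN peak lists of 14 libraries were read, and 12 were compared (H3K27ac, CTCF and ETS1, 2 per genotype), with the 2 IgG lists as a control. The submitters' processing notes name BWA as a tool and GRCm38 as the genome build. The deposited peak names carry MACS2's naming, and each list belongs to 1 library. For versions, options, the control used in calling and the handling of duplicates, nothing is given in the sources used here. Each peak has a score and a ratio (fold over background) made by the authors' peak caller, and −log10 p and −log10 q values, deposited likewise. These values served only within a list. Peaks were ranked by −log10 q, with ties broken by −log10 p and then by the ratio, and filtered by −log10 q. The score was not used. Sequencing depth was not compared, since no column of the lists gives reads.

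Covered length is the sequence under peaks in the gene body with flanks of 10 kb, and log2 ratios had 1 kb added to each mean. Genes came from a RefSeq table of GRCm38.p6, which has no strand. Within an antibody, peaks sharing 1 bp or more were merged into regions. A gene counted as higher in a genotype when both its libraries exceeded both of the other, and a value's p is from an exact permutation test. Text names all 9 genes, their regions of 1 genotype, the best region at a gene end, the 5 highest and 5 lowest other pathway genes among those without overlap, and each gene's nearest pattern; others are marked. The genes and lists were chosen with earlier results of these data known. Alternatives were the gene body alone, flanks of 50 kb, equal list lengths, −log10 q of at least 5, gaps of up to 500 bp joined, 0.1 kb added, each library left out, and division by list totals. The code was tested on simulated data. Python 3.11.15, numpy 2.4.6, pandas 2.3.3, scipy 1.17.1 and matplotlib 3.10.9 were used.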

Additional observations from a re-analysis of the deposited data

How the results depend on the processing

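Of 270 log2 ratios of the 9 genes under the alternatives, 33 had the opposite sign to the value reported: 2 of 90 for H3K27ac, 13 of 90 for CTCF and 18 of 90 for ETS1. With −log10 q of at least 5, only 8 of the 9 genes kept an H3K27ac peak, 6 a CTCF peak and 4 an ETS1 peak. Genes left without a peak had a log2 ratio of 0.00, which was counted as no change of sign though it holds no data. Of the 33, 28 were at genes whose libraries overlapped between genotypes and 5 at genes where they were apart. Those 5 were, after division by the list totals (chosen after seeing the data), Nfkb2 at -0.15 and Rela at -0.0018 for H3K27ac and Nfkbia at -0.05 for CTCF, and, with equal list lengths, Nfkbid at -0.12 for CTCF and Nfkbiz at 0.05 for ETS1. Among overlapping genes the list totals also turned Nfkb2, Rel, Rela and Relb for CTCF and Nfkbid and Tnfaip3 for ETS1, and equal list lengths turned Nfkb2 (-0.0035) for CTCF and Tnfaip3 (0.22) for ETS1.

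Shares over all genes under the same setting follow each count in brackets, here and below. The total of regions at the 9 genes and the number of pathway genes with a peak were not counted under each setting. Counts of regions and of pathway genes therefore cannot be set directly against these shares. For H3K27ac, 8 of the 9 genes were higher in KO over the gene body alone (45.6%) and 9 with 50 kb flanks (61.9%). Equal list lengths gave 7 (49.9%). With −log10 q of at least 5 it was 6 of the 8 genes that kept a peak (53.8%). Division by the list totals gave 4 genes higher in KO (20.8%) and 1 in WT (31.4%) for H3K27ac, 2 (24.8%) and 2 (21.9%) for CTCF, 2 (8.25%) and 0 (10.6%) for ETS1, and 14 and 10 pathway genes (20.8% and 31.4%). Equal list lengths gave 4 pathway genes higher in WT (8.07%), 2 genes higher in KO for ETS1 (9.57%) and 0 KO-only CTCF regions (3.62%). With −log10 q of at least 5, which leaves fewer peaks, 20 pathway genes were higher in KO (53.8%) and 1 in WT (2.17%). For ETS1, 0 of the 4 genes that kept a peak were higher in WT (5.50%). Under the same filter there were 0 WT-only (0.612%) and 1 KO-only (12.3%) H3K27ac regions and 1 KO-only CTCF region (17.6%). The gene body alone gave 0 WT-only (2.30%) and 5 KO-only (6.32%) H3K27ac regions and 2 genes higher in WT for ETS1 (8.34%), and 50 kb flanks gave 1 WT-only ETS1 region (1.11%).

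Leaving out each library in turn gave 8 to 9 of the 9 genes higher in KO for H3K27ac (64.3% to 69.8%). There were 2 to 6 pathway genes higher in WT (10.8% to 14.3%). H3K27ac regions numbered 1 to 2 WT-only (3.51% to 7.46%) and 10 to 21 KO-only (10.3% to 19.3%). For CTCF it gave 5 to 8 genes higher in KO (64.5% to 74.2%), 0 to 3 higher in WT (5.48% to 13.1%), 0 to 2 WT-only (0.992% to 4.17%) and 7 to 11 KO-only regions (14.5% to 16.6%). For ETS1 it gave 0 to 5 genes higher in KO (5.65% to 58.4%), 1 to 4 higher in WT (9.04% to 50.9%), 0 to 10 WT-only (1.35% to 16.2%) and 0 to 12 KO-only regions (0.897% to 45.3%). Apart from the constructions named, the cause of these shifts was not tested. No paired analysis was possible because the WT libraries are technical replicates of 1 biological replicate, so that WT has no second sample to pair. Without read counts depth cannot be compared.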
